A study of Mus musculus with 2 samples.

Results

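The genes described here encode the chaperones that fold proteins in the cytosol and mitochondria, as measured in the thymus of Pla2g10-Tg/+ mice and littermate controls. They were chosen by name. A probe was taken if its gene name began with Dnaj, Hspa, Hspb, Hspc, Hspd, Hspe, Hsph, Hsp90a or Hsp105, was Cct with a digit, or was Tcp1, leaving out Hspa5 and Dnajb9. This gave 70 of the 27845 named genes on the array, on 130 probes. Of the 70, 46 were measured well enough to be tested, among 9421 tested genes in all. The name rule also took in 7 genes of chaperones located in the endoplasmic reticulum and 2 that match by name only: Hspbap1, named for binding a small heat shock protein, and Hspc171, now called Tmem208.

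Both groups were 6-month-old mice on the C57BL/6 background, fed a standard diet. The transgenic mice carried a Pla2g10 transgene on 1 of 2 chromosomes (Tg/+), which adds expression of group X secreted phospholipase A2 per the labels, and the control littermates did not carry it. Thymus RNA was pooled from 4 mice of a genotype, read here as a single pool for each, and 500 ng was labelled. The transgenic and control RNA were hybridised together on 2 two-colour Agilent arrays, with the transgenic pool in red (Cy5) on array 1 and in green (Cy3) on array 2. The sources used here do not give the promoter that drives the transgene, the cells it acts in or the number of founder lines.

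Chaperones bind unfolded stretches of proteins and release them for folding. HSP70 proteins do this in cycles of ATP hydrolysis that J proteins start and that nucleotide exchange factors such as the HSP110 proteins reset. HSP90 acts later, on kinases and steroid receptors among others, and the ring-shaped chaperonins (TRiC in the cytosol, HSP60 with its lid HSP10 in mitochondria) enclose the protein. Heat shock factor 1, encoded by Hsf1, switches many of these genes on by binding inverted repeats of the bases GAA in their promoters. In the thymus, HSP90 and its partner Cdc37 are needed by the kinase Lck.

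The promoters below are shown because heat shock factor 1 targets are described further on as a group. They are a window that holds the factor's element for each of Hspe1, Hsph1 and Dnajb6, whatever the gene's value, and 1 window of Dnaja1. Dnaja1 was lower on both arrays by its brightest probe. They are RefSeq promoters on build GRCm38.p6, each running from 250 bases before the start of the transcript to 50 after it, and they are written 5′ to 3′ on the strand of the gene. Capitals mark the 3-unit heat shock element, searched as the units GAA, TTC and GAA, or TTC, GAA and TTC, in this order with any 2 bases (NN) between neighbouring units. The 2 orders are each other's reverse complement, so that both strands were covered. In Dnaja1, which lacks it, they mark the 2-unit form, searched as GAANNTTC and TTCNNGAA, each its own reverse complement. The windows are Hspe1 (mitochondrial HSP10) at chr1:55087898-55088197 on the plus strand, Hsph1 (HSP110) at chr5:149636266-149636565 on the minus strand, Dnajb6 at chr5:29735648-29735947 on the plus strand and Dnaja1 at chr4:40722218-40722517 on the plus strand.
Hspe1: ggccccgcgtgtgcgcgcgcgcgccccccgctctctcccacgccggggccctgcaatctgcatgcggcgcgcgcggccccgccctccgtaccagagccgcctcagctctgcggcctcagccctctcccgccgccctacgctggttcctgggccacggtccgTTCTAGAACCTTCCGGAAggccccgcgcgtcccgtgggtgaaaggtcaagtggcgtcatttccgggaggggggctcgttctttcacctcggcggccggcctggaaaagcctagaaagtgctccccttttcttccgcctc
Hsph1: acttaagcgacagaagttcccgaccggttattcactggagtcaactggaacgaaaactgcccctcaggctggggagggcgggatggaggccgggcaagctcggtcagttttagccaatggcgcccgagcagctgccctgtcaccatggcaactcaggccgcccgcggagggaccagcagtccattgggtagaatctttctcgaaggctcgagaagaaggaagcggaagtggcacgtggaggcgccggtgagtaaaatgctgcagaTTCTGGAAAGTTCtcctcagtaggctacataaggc
Dnajb6: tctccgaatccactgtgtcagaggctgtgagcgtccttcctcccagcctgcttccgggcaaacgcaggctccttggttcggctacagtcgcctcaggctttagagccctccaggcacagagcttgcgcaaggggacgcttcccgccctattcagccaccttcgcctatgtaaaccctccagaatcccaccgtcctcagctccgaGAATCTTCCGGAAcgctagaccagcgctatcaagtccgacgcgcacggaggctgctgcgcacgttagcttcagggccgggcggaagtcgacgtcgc
Dnaja1: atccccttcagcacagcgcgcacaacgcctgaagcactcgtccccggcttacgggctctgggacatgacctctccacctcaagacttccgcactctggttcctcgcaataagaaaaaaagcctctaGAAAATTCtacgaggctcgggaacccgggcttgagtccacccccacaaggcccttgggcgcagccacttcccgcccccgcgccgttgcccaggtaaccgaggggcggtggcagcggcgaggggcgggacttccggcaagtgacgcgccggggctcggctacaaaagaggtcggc

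Of the 70 genes, 57 matched a promoter in this table. Hspa8, Hspa9, Hsp90aa1, Hsp90ab1 and Cct4 were among those without a match, so their promoters were not searched. The 3-unit element was found in 3 of them (5.26%), Hspd1, Hspe1 and Dnajb6, against 179 of 27025 genes with a promoter (0.662%). The 2-unit form, which every 3-unit element contains, was found in 17 of the 57 (29.8%), against 17% of all genes with a promoter. Hspd1 and Hspe1, the genes of HSP60 and HSP10, lie head to head on chromosome 1. Their windows share 285 bases on opposite strands, so both hold the same stretch, in which 2 overlapping 3-unit matches begin 89 and 84 bases before the Hspe1 start. In Dnajb6 the match begins 46 bases before the start shown, and in Hsph1 15 bases after it. The windows of Hspa4, Hspa4l and Dnajb1, which were lower on both arrays by their brightest probe, hold neither form. The other Dnaja1 windows, at chr4:40722672-40722971 and chr4:40722680-40722979, hold neither form either. These are matches of letters in a window and do not show that the factor binds there.

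A value is given as the log2 of the transgenic over the control signal, after background correction with an added offset of 50 and a loess correction of dye bias. Its error is the SD between the 2 arrays. The labels call the arrays Rep1 and Rep2 and speak of RNA pooled from 4 mice per genotype, without saying whether both arrays carry the same pools. They were taken here as a dye swap of 1 pair of pools, so that the SD is read as technical and no test between genotypes across animals was made. If each array carried pools of its own, the SD would also hold the spread between pools. The number of arrays limits the precision either way. Where the readings of the genotypes do not overlap, this describes 2 readings of each genotype and is no test. Its share over all tested genes was not counted. A gene was tested if its probe was well above background in at least 1 genotype on both arrays. The brightest probe stood for each gene, and 45 of the 46 tested chaperone genes were well above background in all 4 channels. The median SD between arrays was 0.128 over the chaperone genes and 0.0900 over all tested genes. In bulk tissue, fewer cells of a type and less RNA per cell cannot be told apart.

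The tested chaperone genes lay slightly lower in the transgenic thymus, with small differences throughout. Their median log2 ratio was -0.05 (-0.05 on array 1 and -0.04 on array 2), against -0.00 over all tested genes. They ran from -0.45 for Hspa4 to 0.28 for Dnajc19. The mean of both arrays was below 0 in 31 of the 46, against 50.7% of all tested genes, and above 0 in 15, against 49.3%. On both arrays separately, 16 of 46 were lower (34.8%), against 29% of all tested genes, and 5 were higher (10.9%), against 28.3%. The other 25 had opposite signs on the 2 arrays (54.3%), against 42.6% of all tested genes.

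Few chaperone genes differed by a sizeable amount on both arrays. At a difference of at least 0.2 with the same sign on each array, Hspa4 and Dnaja1 were lower, 2 of 46 against a background of 2.35%, and Dnajc19 was higher, 1 of 46 against a background of 3.01%. These counts of 2 and 1 are near the background. The dye contrast, which is the part of the 2 ratios that follows the dye and not the genotype, gave 0 higher and 0 lower chaperone genes under the same rule, against 63 and 68 of the 9421 tested genes. At 0.1 it gave 5 higher and 1 lower, against 495 and 350 of all 9421 tested genes. Its median size over the chaperone genes was 0.09, larger than the 0.06 of the genotype ratio. Over all tested genes the order was the reverse, with 0.06 for the dye contrast and 0.08 for the genotype ratio. At a looser 0.1 on each array, a rule added after the data were seen, 7 were lower against a background of 8.88% and 1 was higher against 10.1%. At 0.5 on each array none of the 46 was higher or lower, against 0.297% and 0.0531% of all tested genes. None reached a mean of 1 with 0.5 on each array, against 0.0318% of all tested genes higher and 0% lower. With each array centred on its median in place of loess, none of the 46 passed 0.2 in either direction, when 21 higher and 10 lower of all 9421 tested genes did.

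**Figure D1:**
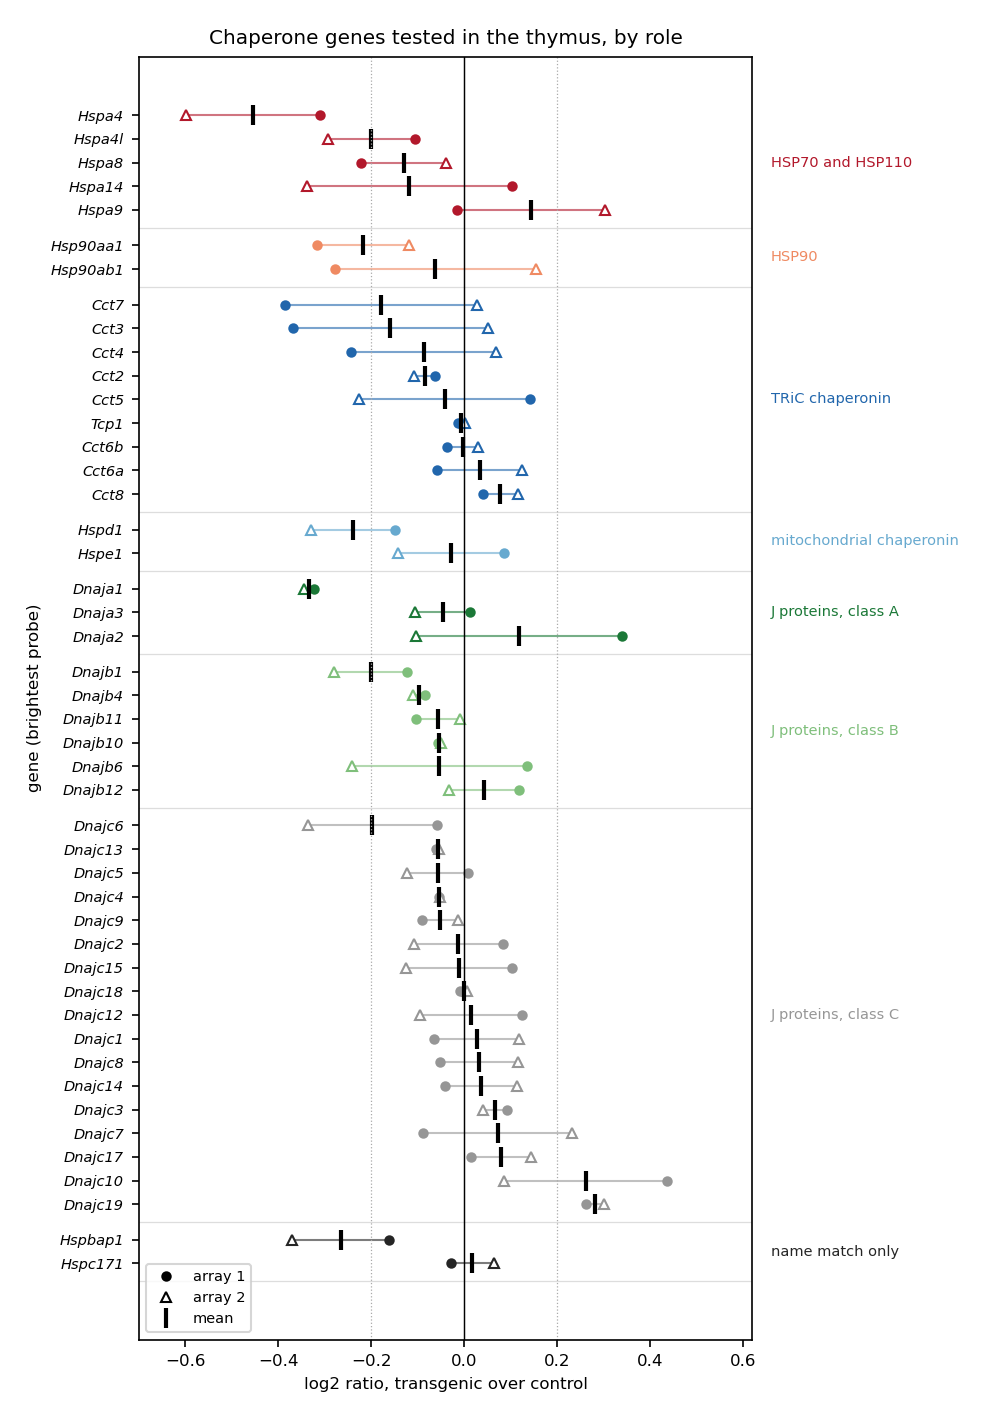
Log2 ratio of transgenic over control (x axis) for the 46 tested chaperone genes (rows), grouped by role and colour, each by its brightest probe. Circles are array 1, triangles array 2, black ticks the mean, and dotted lines mark -0.2 and 0.2. Hspa4 and Dnaja1 lie left of -0.2 and Dnajc19 right of 0.2 on both arrays, and most other lines reach across 0.

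The cytosolic HSP70 and HSP110 genes were lower in the mean, and the mitochondrial HSP70 gene was not. Of 11 genes in the group 5 were tested, with a median of -0.13, which was -0.11 on array 1 and -0.29 on array 2. The mean was below 0 in 4 of the 5, against 50.7% of all tested genes, and 3 were lower on both arrays, against 29%. Hspa4, an HSP110-type exchange factor for HSP70, read 7.05 and 6.90 in the transgenic pool on arrays 1 and 2, against 7.36 and 7.50 in the control pool (normalized log2 signal). Both transgenic readings lay below both control readings, and the ratio was -0.45 ± 0.20 (SD, n = 2 arrays). This probe lies at mm8 chr11:53103268-53103327. A second Hspa4 probe at chr11:53105844-53106357, with nearly the same brightness, gave 0.04 and 0.09 on the 2 arrays, and the dimmest probe gave -0.20 and -0.05. The direction of Hspa4 therefore depends on the probe. Averaged over its probes it was -0.17, and with an offset of 0 the brightest probe read -0.73.

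Hspa4l, its close relative, read 6.67 and 6.50 in the transgenic pool against 6.78 and 6.80 in the control pool. The ratio was -0.20 ± 0.13, and the second probe gave -0.19. With an offset of 0 the brightest probe read -0.43, and with the scanner software's signals -0.50. Hspa8 encodes HSC70, the constitutive cytosolic HSP70 that also strips clathrin from vesicles. It read 10.27 and 10.29 in the transgenic pool, against 10.49 and 10.32 in the control pool. The groups did not overlap, but array 2 differed by only -0.04, and the mean of -0.13 was about as large as its SD of 0.13. The dimmer Hspa8 probe disagreed between arrays, at -0.53 and 0.13. Hspa14, an HSP70 relative found with ribosomes in human cells, read 9.42 and 9.001 in the transgenic pool, against 9.31 and 9.34 in the control pool. Its ratios of 0.10 and -0.34 had no common direction. Hspa9 encodes mortalin, the mitochondrial HSP70 that pulls proteins through the inner membrane. It read 9.02 and 9.14 in the transgenic pool against 9.04 and 8.84 in the control pool, a mean of 0.14 with an SD of 0.22, and its dimmer probe gave -0.08.

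Hspa1a and Hspa1b, the strongly heat-inducible HSP70 genes, were near background. Hspa1a was well above background in 1 of 4 channels and Hspa1b in 0 of 4, so neither was tested. Their net signals over local background were 24.8 and 18.5 units for Hspa1a in the transgenic pool, against 19.5 and 16.7 in the control pool. For Hspa1b they were 14 and 12 in the transgenic pool, against 14.9 and 7.55 in the control pool. No difference was detectable for either at this signal, and the 2 genes are near-identical copies whose probes may read both. Copies in the genome, such as the processed pseudogenes known for Hspa8, Hsp90ab1, Hspd1 and Hspe1, may also share probe signal, and probe specificity was not checked here.

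The HSP90 pair was lower on array 1 and divided on array 2. Hsp90aa1, the stress-inducible cytosolic HSP90, read 10.95 and 11.07 in the transgenic pool and 11.27 and 11.19 in the control pool. Both transgenic readings lay below both control readings, with a ratio of -0.22 ± 0.14. Hsp90ab1, the constitutive HSP90, read 10.69 and 10.87 in the transgenic pool and 10.97 and 10.71 in the control pool. Its ratios of -0.28 and 0.15 had opposite signs, and the other Hsp90ab1 probe did the same with -0.45 and 0.04.

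The TRiC chaperonin, which folds actin and tubulin, showed no shift common to both arrays. All 9 of its genes were tested, with a median of -0.04, which was -0.06 on array 1 and 0.03 on array 2. The mean was below 0 in 7 of the 9, against 50.7% of all tested genes. Cct2, the beta subunit, read 10.11 and 10.35 in the transgenic pool, against 10.17 and 10.46 in the control pool. It was lower on both arrays (-0.06 and -0.11). Cct8, the theta subunit, read 8.82 and 8.80 in the transgenic pool, against 8.78 and 8.68 in the control pool. It was higher on both arrays (0.04 and 0.12), and the other 7 had opposite signs. Cct7 read 9.49 and 9.77 in the transgenic pool and 9.87 and 9.74 in the control pool. Cct3 read 6.44 and 6.69 in the transgenic pool and 6.80 and 6.64 in the control pool. Both were clearly lower on array 1 alone (-0.38 for Cct7 and -0.37 for Cct3), with 0.03 and 0.05 on array 2. Cct4, the delta subunit, read 8.45 and 8.66 in the transgenic pool, against 8.70 and 8.59 in the control pool. It had the same pattern, at -0.24 and 0.07. Cct5, the epsilon subunit, read 10.36 and 10.14 in the transgenic pool, against 10.22 and 10.36 in the control pool, and turned the other way, at 0.14 and -0.23. Tcp1, the alpha subunit, read 8.53 and 8.45 in the transgenic pool, against 8.54 and 8.45 in the control pool, a ratio of -0.01 ± 0.01. Its 2 genotypes lay closer together on each array than the 2 arrays did. The zeta subunit gene Cct6a read 6.31 and 6.40 in the transgenic pool, against 6.37 and 6.28 in the control pool, a ratio of 0.03 ± 0.13. Its paralogue Cct6b read 8.03 and 8.08 in the transgenic pool, against 8.06 and 8.05 in the control pool, a ratio of -0.00 ± 0.05.

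The mitochondrial chaperonin genes, which share the promoter stretch printed above, differed in how they read. Hspd1, encoding HSP60, had 9.89 and 9.77 in the transgenic pool, against 10.04 and 10.10 in the control pool. The groups did not overlap, the ratio was -0.24 ± 0.13, and its second probe gave -0.20 and -0.07. Hspe1, encoding HSP10, had 8.72 and 8.63 in the transgenic pool, against 8.64 and 8.77 in the control pool. Its groups overlapped and its arrays gave 0.09 and -0.14, with a mean of -0.03 ± 0.16.

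Among the J proteins, which deliver clients to HSP70 and start its ATP hydrolysis, 26 of 37 were tested and the few sizeable differences ran both ways. Class A genes had a median of -0.05 (3 of 4 tested), class B genes -0.06 (6 of 12) and class C genes 0.02 (17 of 21). Dnaja1, a major cytosolic HSP70 partner, read 8.35 and 8.37 in the transgenic pool and 8.67 and 8.71 in the control pool. Its ratio of -0.33 ± 0.01 was the closest match between arrays among the larger differences listed here, with no overlap. The probe lies at mm8 chr4:40918944-40920399. The 2 dimmer Dnaja1 probes agreed on array 2 (-0.27 and -0.28) but not on array 1 (0.02 and 0.16), and the average over all its probes was -0.17. Dnaja2, the other main cytosolic class A protein, read 7.45 and 7.17 in the transgenic pool, against 7.11 and 7.27 in the control pool. Its groups overlapped, and its ratios were 0.34 and -0.10. Dnaja3, the mitochondrial class A protein, read 6.69 and 6.57 in the transgenic pool, against 6.67 and 6.68 in the control pool, a ratio of -0.05 ± 0.08.

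In class B, 5 of the 6 tested genes were below 0, against 50.7% of all tested genes, and 4 were lower on both arrays, against 29%. Dnajb1, the heat-inducible HSP40, read 9.51 and 9.44 in the transgenic pool and 9.63 and 9.72 in the control pool. That made -0.20 ± 0.11 without overlap, and its second probe gave -0.23 and 0.01. Dnajb4, a relative of Dnajb1, was at -0.10 ± 0.02, and its second probe at -0.13. Dnajb6, which keeps aggregation-prone proteins soluble, was at 0.13 and -0.24. Its other probes disagreed in sign, one at 0.15 and the other at -0.09. Dnajb10, now called Dnajb2, was at -0.06 and -0.05. Dnajb11, which serves the endoplasmic reticulum, was at -0.06. Dnajb12, of its membrane, read 7.50 and 7.46 in the transgenic pool, against 7.38 and 7.49 in the control pool, a ratio of 0.04 ± 0.11.

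In class C, 8 of the 17 tested genes were below 0, with 4 lower and 4 higher on both arrays, against 29% and 28.3% of all tested genes. Dnajc19, part of the motor that imports proteins into mitochondria, read 9.22 and 9.20 in the transgenic pool and 8.96 and 8.90 in the control pool. The groups did not overlap and the ratio was 0.28 ± 0.03, from a single tested probe at mm8 chr3:34270339-34270757. Dnajc10, a disulfide reductase of the endoplasmic reticulum, read 7.26 and 6.97 in the transgenic pool and 6.83 and 6.88 in the control pool. Its groups did not overlap and its ratio was 0.26 ± 0.25, and its dimmer probes averaged 0.06 and 0.10. Dnajc6 encodes auxilin, which brings HSC70 to clathrin coats. It read 6.95 and 6.61 in the transgenic pool and 7.01 and 6.94 in the control pool, with an overlap and a ratio of -0.20 ± 0.20. With an offset of 0 the ratio of Dnajc6 was -0.39.

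The remaining class C genes lay between -0.06 and 0.08. Dnajc17 read 6.27 and 6.44 in the transgenic pool, against 6.26 and 6.30 in the control pool, a ratio of 0.08 ± 0.09. Dnajc7, a bridge between HSP70 and HSP90, read 9.10 and 9.26 in the transgenic pool, against 9.18 and 9.03 in the control pool, a ratio of 0.07 ± 0.23. Its sign turned between the arrays. Dnajc3, an inhibitor of eIF2 kinases in the endoplasmic reticulum, read 8.46 and 8.54 in the transgenic pool, against 8.37 and 8.50 in the control pool, a ratio of 0.07 ± 0.04. The 4 Dnajc3 probes did not share a sign, running from -0.12 to 0.18. Dnajc14, of the endoplasmic reticulum membrane, read 6.41 and 6.42 in the transgenic pool, against 6.45 and 6.31 in the control pool, a ratio of 0.04 ± 0.11. Dnajc8, the splicing-associated J protein, read 8.97 and 8.93 in the transgenic pool, against 9.02 and 8.81 in the control pool, a ratio of 0.03 ± 0.12. Both had opposite signs on the arrays, as had Dnajc1 at 0.03 and Dnajc12 at 0.02. Below 0, Dnajc13 of endosomes was at -0.06, Dnajc5, the cysteine string protein of vesicles, at -0.06, Dnajc4 at -0.05 and Dnajc9, a histone chaperone, at -0.05. Dnajc2 of the ribosome and Dnajc15 of the mitochondrial inner membrane were both at -0.01, and Dnajc18 was at -0.00. Of the 2 genes that match by name only, Hspbap1 read 6.97 and 6.94 in the transgenic pool, against 7.13 and 7.31 in the control pool. Its groups did not overlap and its ratio was -0.27 ± 0.15 (-0.44 with an offset of 0), while Hspc171 was at 0.02 ± 0.07.

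By place in the cell, the 27 tested genes of the cytosol and nucleus had a median of -0.06, with 21 below 0, against 50.7% of all tested genes. The 6 tested mitochondrial genes had -0.02, but 0.05 on array 1 and -0.11 on array 2, with 4 below 0, and the 6 tested genes of the endoplasmic reticulum had 0.04, with 1 below 0. Of the 18 genes with several tested probes, 13 had probes of a single sign. The probes of the other 5 (Hspa4, Hspa9, Dnajb6, Dnajc1 and Dnajc3) differed in sign.

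All 7 small heat shock protein genes in the set were untested, Hspb1 among them with 0 of 4 channels well above background. They encode ATP-independent holdases that are abundant in muscle. Altogether 24 of the 70 genes were not tested, 18 of them with no channel well above background, and no difference could be detected in them at this signal. These also included the class A gene Dnaja4, 6 class B genes, 4 class C genes and, besides Hspa1a and Hspa1b, the HSP70 relatives Hspa12a, Hspa12b, Hspa1l and Hspa2.

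Of the chaperone genes known as targets of heat shock factor 1, those tested were lower in the mean of both arrays. Of 17 such chaperone genes listed, 9 were tested: Hspa8, Hspa4l, Hsp90aa1, Hsp90ab1, Hspd1, Hspe1, Dnaja1, Dnajb1 and Hsp110. Hsp110 is the array's name for Hsph1, an HSP110 exchange factor, and the name rule misses it. Their median log2 ratio was -0.20, with -0.22 on the first array and -0.28 on the other, against -0.00 over all tested genes. All 9 were below 0 in the mean and 7 were lower on both arrays, against a background of 29%. At 0.2 on each array 2 of the 9, Dnaja1 and Hsp110, were lower, against a background of 2.35%, and at 0.1 it was 6 of 9, against 8.88%. Hspa1a, Hspa1b, Hspb1 and Hspb8 were also listed but not well enough above background to test. With no filter on dim probes, which lets them in, 10 of 13 were below 0. The median of the 13 was then -0.13, against 9.51e-05 over all genes. Those above 0 in the mean, all near background, were Hspa1a (0.09 and 0.08 on arrays 1 and 2), Hspa1b (0.04 and 0.04) and Hspb8 (-0.09 and 0.11). The list was drawn up with earlier results of these data known, and a list's count and median carry no test here.

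Hsp110 read 7.14 and 7.10 in the transgenic pool, against 7.41 and 7.65 in the control pool. Both transgenic readings lay below both control readings, and the ratio was -0.41 ± 0.19. Without Hsp110, the other 8 targets had a median of -0.20. The 38 tested chaperone genes outside the target list had a median of -0.01, with 23 below 0, against 50.7% of all tested genes. On both arrays 10 of the 38 were lower, against 29%, and 5 were higher, against 28.3%. With median centring in place of loess, the 9 targets stayed below 0 in the mean, with a median of -0.26, when the median over all tested genes was -0.03. In that setting 1 of the 46 chaperone genes was lower on both arrays, against 4.47% of all tested genes. All targets but Hsp110 are among the 46, so the count of 7 targets lower on both arrays did not hold there. Summed over the 9 genes, the normalized signal was 7539 and 7788 units in the transgenic pool, against 8843 and 8403 in the control pool.

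**Figure D2:**
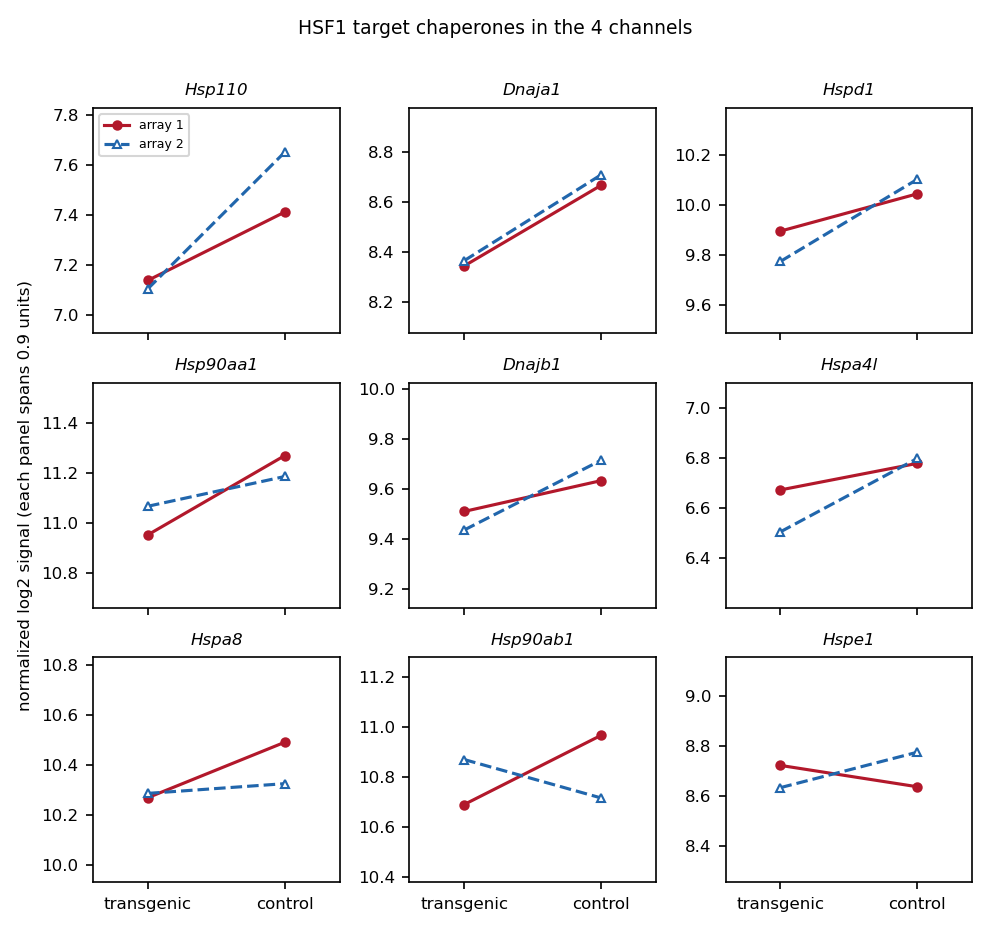
Normalized log2 signal (y axis, every panel spanning the same height) of the 9 tested heat shock factor 1 target chaperones in the transgenic pool (left) and the control pool (right). Lines join the 2 channels of an array, solid for array 1 and dashed for array 2. In 7 panels both lines go up towards the control pool, and in Hsp90ab1 and Hspe1 they cross with opposite slopes.

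**Figure D3:**
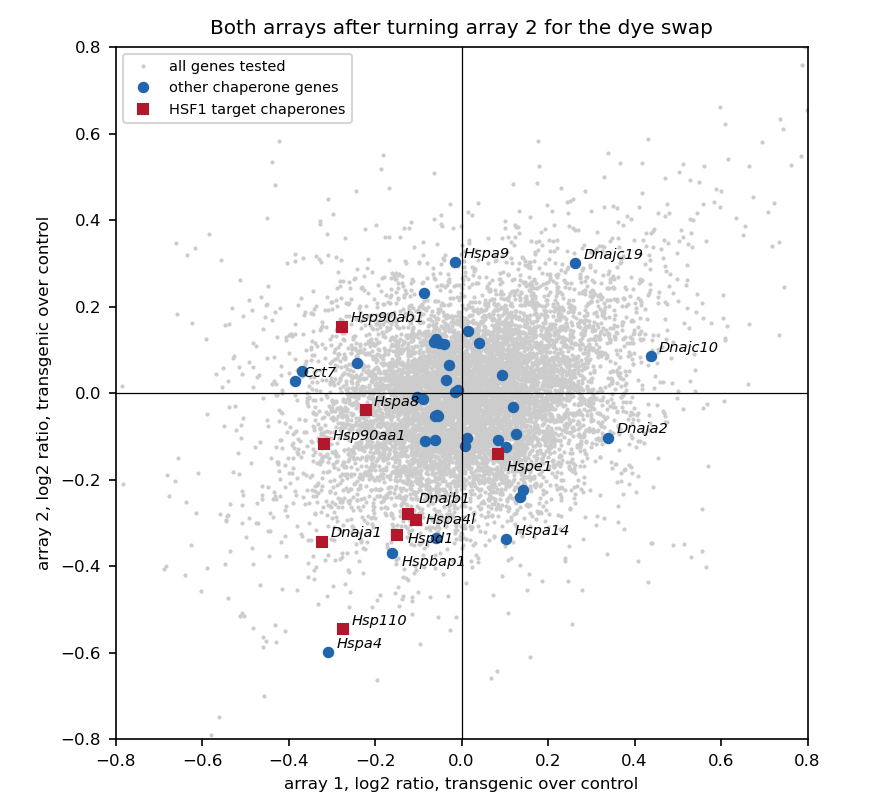
Log2 ratio of transgenic over control on array 1 (x axis) and array 2 (y axis, turned for the dye swap) for all tested genes (grey, axes limited to -0.8 to 0.8), the 9 heat shock factor 1 target chaperones (red squares) and the other chaperone genes (blue circles). Of the red squares, 7 lie at lower left, while the blue circles lie on all sides of 0, with Hspa4 lowest and Dnajc19 at upper right.

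The factor's own gene, Hsf1, was lower on both arrays. It read 10.84 and 10.82 in the transgenic pool, against 10.98 and 10.99 in the control pool, a ratio of -0.16 ± 0.02 without overlap. Hsbp1, which encodes a binding protein of heat shock factor 1, was at 0.04. Hsf2, Hsf4 and Hsf2bp were not tested.

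The co-chaperones that steer HSP70 and HSP90 had a median of -0.07 over 28 tested of 37 listed genes. The mean was below 0 in 20 of the 28, against 50.7% of all tested genes. On both arrays 12 were lower, against 29%, and 5 higher, against 28.3%. At 0.2 on each array 1 was lower and 1 higher, near the background of 2.35% and 3.01%. Cdc37, which recruits kinases to HSP90, read 9.95 and 10.17 in the transgenic pool and 10.48 and 10.35 in the control pool, a ratio of -0.35. St13, which stabilises the HSP70-client complex, was at -0.30 and -0.23 on the 2 arrays. Stip1, which joins HSP70 to HSP90, was at -0.34 and -0.13. Fkbp5, a steroid receptor co-chaperone induced by glucocorticoids, went the other way at 0.53 and 0.49.

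The other folding genes differed little. Of the mitochondrial folding and import partners, 24 of 26 were tested, with a median of -0.05, 16 below 0, against 50.7% of all tested genes, and none past 0.2 on both arrays, against 2.35% lower and 3.01% higher. The import channel gene Timm17b was at -0.20, Grpel1, the exchange factor of mitochondrial HSP70, at -0.16, the protease gene Spg7 at -0.14 and the unfoldase gene Clpx at 0.16. Prefoldin and tubulin cofactor genes, which work beside TRiC, had a median of 0.06 over 12 of 17 genes, but 0.13 on array 1 and -0.03 on array 2. Among them Tbca was at 0.19, Pfdn5 at 0.17 and Tbcc at -0.12, each with 1 sign on both arrays, while Pdcl was at 0.30 and -0.03.

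Chaperones of the endoplasmic reticulum outside the name rule had a median of 0.01 over 17 tested of 20 listed genes. None was lower on both arrays, against 29% of all tested genes, and 5 of 17 were higher, near the background of 28.3%. Canx, encoding the lectin chaperone calnexin, was at 0.27. Sec63, a J protein of the translocon, had opposite signs, at 0.41 and -0.11. Sil1, an exchange factor, was at 0.10 and Herpud1, of protein degradation, at 0.06. Hspa5, encoding BiP, the master HSP70 of that compartment, was at -0.01.

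**Figure D4:**
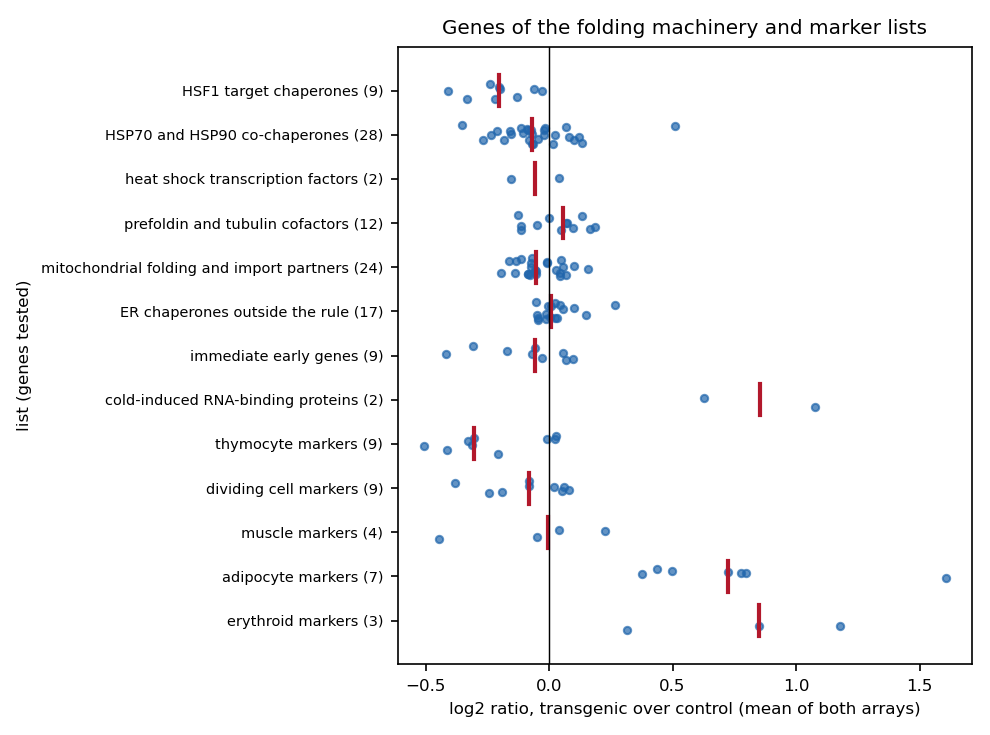
Mean log2 ratio of transgenic over control (x axis) of each tested gene (blue points, spread vertically for legibility) in the folding and marker lists (rows, number of tested genes in brackets), with the median as a red bar. The heat shock factor 1 targets have a median of -0.20, the endoplasmic reticulum chaperones 0.01, the thymocyte markers -0.30 and the adipocyte markers 0.73.

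Array-wide values bear on all of these. Between 28.5% and 34.1% of transcript spots were well above background per channel. The red over green ratios of arrays 1 and 2, after background and loess correction, had a Pearson correlation of -0.27 over 11302 spots. The single Pla2g10 probe passed the background flag in 0 of 4 channels. The labels do not state which stretch of Pla2g10 the mice carry, so that this probe is no check on them.

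Markers of cell types moved beside the chaperone genes, and their part in the chaperone values was not tested. The thymocyte markers were present, with a median of -0.30 over 9 tested of 10 genes. On both arrays 6 of them were lower, against 29% of all tested genes, and 2 were higher, Cd4 at 0.02 and Cd1d1 at 0.03. Cd3e had opposite signs. Their summed signal was 22013 and 22018 units in the transgenic pool, against 27823 and 28331 in the control pool. Adipocyte markers were higher, 7 of 7 tested on both arrays with a median of 0.73, and summed to 1880 and 1786 units in the transgenic pool, against 1095 and 1035 in the control pool. Adipoq was not tested. The 3 tested erythroid markers of 8 listed were higher on both arrays, summing to 5019 and 5786 units in the transgenic pool, against 2663 and 2455 in the control pool. Slc4a1 was not well enough above background to test.

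Dividing cell markers had a median of -0.08 over 9 tested of 10 genes, with 4 lower and 3 higher on both arrays, against 29% and 28.3% of all tested genes. Plk1 was at -0.38, whereas Mki67 was at 0.08. They summed to 8456 and 8564 units in the transgenic pool, against 8945 and 8652 in the control pool. Muscle markers had a median of -0.00 over 4 tested of 10 genes, which went both ways. Acta2, the smooth muscle actin gene, was at -0.64 and -0.25, and Tnni2, of fast skeletal muscle, at 0.25 and 0.20. Immediate early genes, which many cells induce within minutes of a stimulus, had a median of -0.06 over 9 tested of 16 genes. On both arrays 4 were lower, against 29% of all tested genes, and 2 were higher, against 28.3%. Btg2 was lowest at -0.42 and Egr2 next at -0.31, while Junb was highest at 0.10. The cold-induced RNA-binding protein genes were higher, and their part in the chaperone values was likewise not tested. Cirbp was at 1.07 and Rbm3 at 0.63, and summed they read 5106 and 5050 units in the transgenic pool, against 3070 and 3069 in the control pool.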

How the data were processed

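RNA of 6-month-old mouse thymus was compared between transgenic and control pools of 4 mice, taken as 1 pool each, on 2 dye-swapped arrays. The deposited scanner files hold mean and local background intensity per spot and channel on a linear scale, per the file headers, which name Feature Extraction 9.5.1.1. The authors' deposited series table holds log10 ratios of red over green, which equal the ratio of the software's processed signals. Its medians were -0.113 on array 1 and -0.101 on array 2, and its direction was settled by this match. Array designs give probe positions on mm8, per the file headers.

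Mean intensities were corrected by normexp with an offset of 50 and dye bias was removed by within-array loess, in which control spots and the 46 and 37 outlier spots had weight 0 (limma 3.58.1, R 4.3.3). Channel levels were then scaled by Aquantile. Spots of a probe were averaged, and ratios of array 2 were turned. A probe was tested if at least 0.5 of its spots passed the software's background flag on both arrays in either genotype, so 12235 of 41174 probes and 9421 genes were tested. No chaperone probe used was saturated. Gene names are those of the array design. Of its probes 23374 matched a RefSeq table (GRCm38.p6) by accession, 6733 by symbol, 2919 by synonym and 8148 by none. Under updated names the set would have 81 genes, with 13 names added and 2 lost. Dnajb10 counts in both, as it would stay under its new name Dnajb2.

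A gene was counted if its log2 ratio was at least 0.2 with the same sign on both arrays. The labels do not say whether both arrays carry the same pools. They were taken to, and so count as 1 replicate, which allows no test across animals. A limma test over the 2 arrays was an alternative only. The scripts were tested on simulated data. The members and lists were chosen with earlier results of these data known. Genes named were the 12 highest and 12 lowest tested members, a fixed set of main chaperones, and up to 4 genes of each list with the largest mean ratio. The alternatives tried were the offset, the background correction, median centring, the software's signals, the filter, the choice of probe, the gene names, the thresholds and each array alone.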

Additional observations from a re-analysis of the deposited data

How the results depend on the processing

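The median of the chaperone genes was -0.0713 with median centring, -0.0548 with the scanner software's signals and with the deposited series table, and -0.025 with no filter on dim probes, where 70 genes entered. On a single array it ran from -0.0525 to -0.0447. Of 46 genes, those at least 0.2 lower on both arrays numbered 4 under each of 3 settings: an offset of 0, the processed signals and the series table. They numbered 0 with median centring, with the mean over probes and at thresholds of 0.5 or a mean of 1, and 7 at 0.1. A limma test over the 2 arrays, which treats arrays as replicates, gave 1 lower (Hspa4) and 0 higher, and 7 lower and 2 higher before adjustment, against 532 and 643 of all 9421 tested genes. Those at least 0.2 higher numbered 0 with median centring and at thresholds of 0.5 or a mean of 1. Past 0.2 on array 1 alone were 8 lower and 3 higher, against 1053 and 1343 of all 9421 tested genes. On array 2 alone they were 10 and 3, against 871 and 690. Genes above 0 on both arrays numbered 0 with median centring. With no filter they numbered 10 of 70, against 26.5% of all genes. Genes below 0 on both numbered 1 with median centring. On array 1 alone 16 were above 0 and 30 below, against 52.9% and 47.1% of all tested genes. On array 2 alone 19 were above 0 and 27 below, against 46.4% and 53.6%. Under median centring 4.47% and 2.12% of all tested genes were lower and higher on both arrays. The median of the heat shock factor 1 targets was -0.262 with median centring, -0.130 with no filter, where 13 genes entered, and -0.279 to -0.222 on a single array. Over all genes tested, the 284 higher and 221 lower at 0.2 became 765 and 616 with an offset of 0, 878 and 696 with the software's signals or the series table, 21 and 10 with median centring, 101 and 64 by limma, 947 and 837 at 0.1, 28 and 5 at 0.5, and 3 and 0 at a mean of 1. Of the values recomputed for the 32 named genes and Hsp110, 37 moved by more than the SD between arrays and 326 did not. A single array cannot move a value by more than that SD, and the filter and gene names leave a gene's own value as it is, so those settings say nothing of stability. The cause of these changes was not tested, except where fewer or more genes entered. No paired analysis was possible because each array is already a ratio of both genotypes and the arrays, taken as 1 pair of pools, form a single group. Signal near background limits the 24 untested genes, and 1 pool per genotype limits all values.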
